A study of Mus musculus with 12 samples.

Results

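Dendritic cells of the bone marrow were taken here as the cells with high MHC class II transcripts. A cell was a member when Cd74, H2-Aa, H2-Ab1 and H2-Eb1 together made up at least 50 of every 10000 UMIs of the cell (a UMI marks 1 captured RNA molecule), and when it held no UMI of the B lymphoid genes Cd79a, Vpreb1 and Igll1 and no UMI of the macrophage genes C1qa and C1qb. The members were thus selected on measured values, so the levels of these 9 genes are given as a description, without a test. In all, 253 of 32701 cells (0.774%) met the rule. The cells came from a c-Kit-enriched fraction of bone marrow, prepared by magnetic separation from femurs and tibias per the labels, and profiled by droplet-based single-cell RNA sequencing of 3' ends.

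There were 4 genotypes, and all mice received 5 injections of pIpC (20 mg/ml, mice of 8 to 12 weeks per the labels), a synthetic double-stranded RNA that induces the interferon-responsive recombinase Mx1-Cre. WT mice lacked Mx1-Cre. E2-KO mice were Mx1-Cre+;Ezh2 f/f, G12D mice were Mx1-Cre+;NRas G12D+/-, and G12D/E2-KO mice carried both alleles with Mx1-Cre. Mx1-Cre itself therefore cannot be told apart from the mutations in a comparison with WT, and it also acts outside blood cells. Each genotype gave 1 library at T1 (2 weeks), T2 (2 months) and T3 (4 months after pIpC), so that 12 libraries were compared with 3 time points standing as the replicates of a genotype. The sources differ on some of this: the methods of the study name a younger age at pIpC and also vertebrae and pelvic bones as the source of marrow, and the cell names inside the tables count the time points from T0 to T2, whereas the labels used here count them from T1 to T3. The number of mice in a library is not given in the sources used here, and p-values measure the spread between these libraries. Libraries held 2350 to 3767 cells and 12636998 to 23646292 UMIs, with a median of 2589 to 6889.5 UMIs per member.

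The tables of G12D T1 and G12D/E2-KO T1 share 2896 cells, which were counted only in G12D/E2-KO T1. This bears directly on the dendritic cells: of 134 members in the G12D T1 table as deposited, 118 were also in G12D/E2-KO T1, and 16 were left. Ezh2 was at 12.5 CPM (counts per 1000000 UMIs) in the 118 shared members, from 9 UMIs, and at 46.5 CPM in the 16 kept, from 5 UMIs. The deposited cell names are running numbers rather than barcodes, so shared cells were found from their counts. The Xist transcript was present in members of WT T3, E2-KO T3 and G12D T3 at 1581, 1440 and 1228 CPM and was at 0 in members of the other 9 libraries, so that sex differs between libraries and within the T3 time point.

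Dendritic cells take up antigen and present it to T cells on MHC class II molecules. H2-Aa, H2-Ab1 and H2-Eb1 encode chains of such peptide-binding molecules. Cd74 (the invariant chain) guards the groove until the molecule reaches the endosome, and H2-DM exchanges the last piece of Cd74 for peptide. Conventional type 1 cells (Xcr1, Clec9a, Batf3) are specialised in presenting material of dead cells to CD8 T cells, conventional type 2 cells (Cd209a, Sirpa, Irf4) present mainly to CD4 T cells, and plasmacytoid cells (Siglech, Tcf4, Bst2) are the main makers of type I interferon. They arise in the marrow from Flt3-positive progenitors.

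H2-Aa, H2-Ab1 and H2-Eb1 lie in the MHC region of chromosome 17, and class II genes are known to share a set of promoter-binding factors. The 150 bases before the RefSeq start site of H2-Aa (chr17:34287824-34287973, minus strand), H2-Eb1 (chr17:34305717-34305866, plus strand) and H2-DMb1 (chr17:34153041-34153190, plus strand), build GRCm38.p6, are shown because the first pair chose the members and the third belongs to the same pathway but was not used. Capitals mark the Y box core ATTGG on either strand (CCAAT when read from the other strand), and a form of the X box that reads AG, 2 free bases, AC, 1 free base and GATG, which was searched on both strands and written down after these promoters had been read. The marked stretches do not overlap.
H2-Aa: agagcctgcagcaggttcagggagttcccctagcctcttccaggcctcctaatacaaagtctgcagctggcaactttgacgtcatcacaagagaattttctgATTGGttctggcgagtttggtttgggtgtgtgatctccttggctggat
H2-Eb1: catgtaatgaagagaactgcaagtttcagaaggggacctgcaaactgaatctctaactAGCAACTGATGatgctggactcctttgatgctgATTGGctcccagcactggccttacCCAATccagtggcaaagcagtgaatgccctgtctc
H2-DMb1: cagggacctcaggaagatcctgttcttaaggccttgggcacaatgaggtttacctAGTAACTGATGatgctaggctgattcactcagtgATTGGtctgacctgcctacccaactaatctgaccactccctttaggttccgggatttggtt

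ATTGG began 48, 59 and 61 bases before the start site in H2-Aa, H2-Eb1 and H2-DMb1, and 90, 43 and 57 bases before it in H2-DMb2, H2-Oa and H2-Ob. Of 32851 RefSeq promoters of the same length, 24.5% held ATTGG on either strand and 0.444% held this form of the X box. Both were in 0.125%. Of 10 class II pathway genes looked up, 7 had an entry. H2-DMa had 2 entries, and neither held ATTGG or this form of the X box in its window. H2-Ab1, Ciita and Cd74 had none.

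The rule sets the class II level of the members, and no gap in the level marks its threshold. Among the cells without an excluded UMI, 20899 of 26043 held no class II UMI at all. The 3 members nearest the threshold had 50.41, 56.41 and 59.36 class II UMIs per 10000, and the 3 cells nearest below it had 48.23, 42.72 and 41.30. The median member had 338 per 10000 and the highest 1560, and 196 members (77.5%) were at 200 or above. Over all members Cd74 made up 198 of 10000 UMIs, H2-Aa 75.5, H2-Ab1 75.4 and H2-Eb1 50.5. Members held 73.5% of all class II UMIs of the series, and 38.2 to 47.8% in the 6 libraries without G12D. The library G12D/E2-KO T1 holds 125 of the 253 members, so pooled values were also computed without it, a choice made after the data were seen. Without it 128 of 29657 cells (0.432%) were members, they held 55.3% of class II UMIs, and their median level was 264 per 10000.

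**Figure D1:**
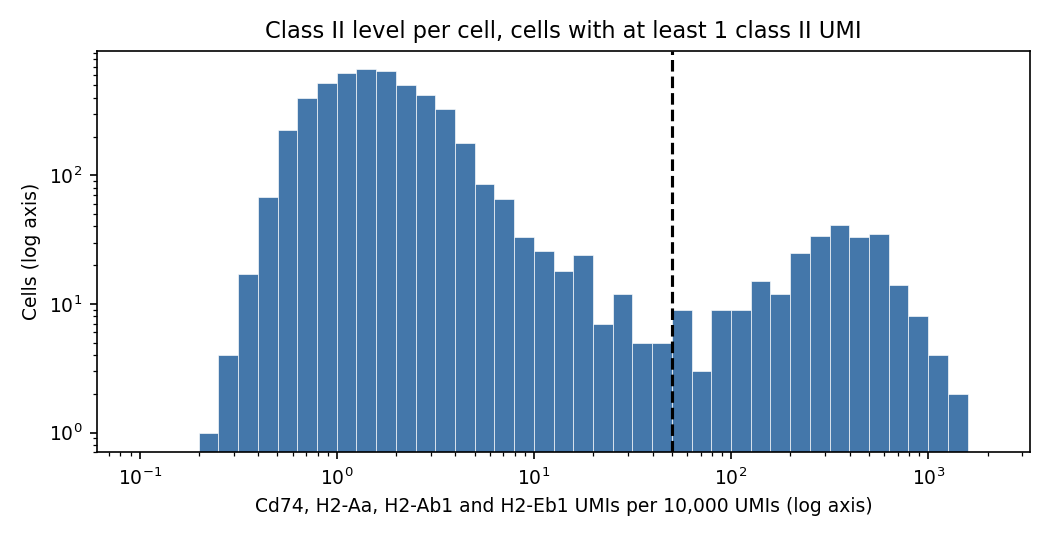
Number of cells (vertical, log axis) by the summed level of Cd74, H2-Aa, H2-Ab1 and H2-Eb1 per 10000 UMIs (horizontal, log axis), for cells with at least 1 class II UMI and no UMI of an excluded gene. The dashed line is the threshold of 50, few cells lie near it on either side, and the members have a median of 338.

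Class II level also varied among libraries. The summed members of E2-KO T3 had 160 class II UMIs per 10000, the lowest, and those of WT T3, only 2 cells, had 670, the highest. The 3 G12D/E2-KO libraries were at 456, 328 and 232 per 10000 at T1, T2 and T3, and the 3 G12D libraries at 308, 375 and 271. The ranges of the genotypes overlapped. In the cells that were not members the level was between 0.312 and 1.85 per 10000 in every library.

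The label dendritic cells was checked against genes that the rule did not use. Cst3, the protease inhibitor abundant in dendritic cells, was seen in 252 of 253 members at a mean of 17862 ± 7550 CPM (SD, n = 12 libraries), against 468 CPM in all other cells. Irf8, a transcription factor needed for type 1 and plasmacytoid cells, was at 1301 ± 409 CPM against 69.1. Flt3, the growth factor receptor of dendritic progenitors, was seen in 34.4% of members (31.2% without G12D/E2-KO T1) and 5.54% of other cells. Ciita, the master regulator of class II genes, was seen in 20.6% (14.1%) and 0.136%, and the selection on class II genes bears on it. Of 8 genes on the core list, 6 were at least 2-fold higher in members, with a median log2 ratio of 4.04, beside -0.03 over 12300 genes with a UMI in members, of which 22.6% were at least 2-fold higher. Zbtb46, on this list, was higher in members in only 6 of 12 libraries. It was seen in 52 of 170 members of G12D/E2-KO, 7 of 41 of G12D, 1 of 20 of WT and 0 of 22 of E2-KO. These ratios compare a selected set of cells with the rest and carry no test.

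Over all members pooled, the markers of type 1 cells were more frequent than Siglech or Cd209a. This order did not hold in every library: Cd209a was seen in more members than Xcr1 or Clec9a in E2-KO T1 (5 against 2 of 7) and G12D T2 (3 against 2 of 7), and Siglech in E2-KO T1 (3 against 2 of 7) and E2-KO T3 (4 against 3 of 8). Cd209a equalled it in WT T1, with 3 of 8 each, and both did in G12D/E2-KO T3, with 2 of 12 each. Xcr1, the receptor for a chemokine of cytotoxic lymphocytes, was seen in 127 members (50.2%) and in 0.0955% of other cells. Clec9a, the receptor for exposed actin on dead cells, was seen in 141 members (55.7%) and 0.305% of other cells, and Batf3, the factor required for this lineage, in 157 (62.1%) and 0.339%. All 10 genes of the type 1 list were at least 2-fold higher in members, with a median log2 ratio of 6.07. Either Xcr1 or Clec9a was seen in 169 members (66.8%) at a median of 5816 UMIs per cell. Without G12D/E2-KO T1 it was 62 of 128 (48.4%), with Xcr1 in 32.0%, Clec9a in 39.8% and Batf3 in 57.0%. After every cell was thinned to 2000 UMIs, it was seen in 49.4% of 245 members and 0.142% of other cells.

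Siglech, given as a marker of these cells, was by contrast seen in only 14 of the 253 members (5.53%), and in 13 of 128 (10.2%) without G12D/E2-KO T1. Most Siglech cells of the series lie outside the rule. Of 47 cells with at least 2 Siglech UMIs, 11 were members, and the other 36 had a median class II level of 0. Those 36 cells had 4473 CPM of Ly6d, 953 of Cox6a2, 413 of Tcf4 and 1023 of Bst2, against 30.8, 5.37, 35.9 and 103 CPM in the cells that had no Siglech UMI and were not members. The 11 that were members had 2946, 1305, 1230 and 4884 CPM of the same genes, and a median of 121 class II UMIs per 10000. By genotype, Xcr1 or Clec9a was seen in 10 of 20 members of WT, 10 of 22 of E2-KO, 18 of 41 of G12D and 131 of 170 of G12D/E2-KO.

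Cd209a, the lectin DC-SIGN of type 2 cells, was seen in 16 members (6.32%, or 12.5% of 128 without G12D/E2-KO T1), and 5 of these also held a Siglech UMI. On the type 2 list 4 of 9 measured genes were at least 2-fold higher in members, and Clec4a4 and Esam were at 0. None of Xcr1, Clec9a, Siglech and Cd209a was seen in 63 members (24.9%). These 63 cells had a median of 3555 UMIs and 210 class II UMIs per 10000, with 2339 CPM of Lyz2 and 446 CPM of Ccr2, the chemokine receptor of monocytes, against 734 and 99.1 CPM in the members with Xcr1 or Clec9a. Batf3 was similar in both, at 248 and 259 CPM. Other genes of the type 1 list were lower in the 63 cells: Naaa at 574 against 1439 CPM, Tlr3 at 89.2 against 294 and Irf8 at 1032 against 1304. Ly6c2 was higher in them at 1125 against 143 CPM, as were Csf1r at 54.3 against 3.06 and S100a8 at 10026 against 3110.

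Genes outside the rule with a mean of at least 100 CPM in members were ranked by the ratio of mean library CPM in members to that in other cells. The first 15 were Cd209a, Xcr1, Batf3, Ckb, Clec9a, Naaa, Tlr3, Siglech, Pid1, Tnni2, Rnase6, Aif1, Amica1, Cd7 and Phf11b. The mean weights each library equally, which places Cd209a first at 194 ± 256 CPM although few cells carry it. Naaa, an acid amidase of lysosomes, was at 713 ± 489 CPM in members and 5.35 in other cells. Ckb, the brain form of creatine kinase, was at 356 ± 242 against 1.83 CPM, and Tlr3, the endosomal sensor of double-stranded RNA, at 138 ± 133 against 0.373. Batf3, Ckb, Clec9a, Naaa, Pid1, Rnase6, Aif1 and Amica1 were higher in members in each of the 12 libraries.

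The rest of the class II pathway followed the selected genes. On this list 11 of 14 genes were at least 2-fold higher in members, with a median log2 ratio of 3.99. H2-DMa was at 974 ± 260 CPM against 48.8, and H2-DMb1 at 615 ± 218 against 15.4. H2-Oa, which restrains H2-DM, was at 192 ± 158 against 3.50 CPM. Ctss, the protease that trims Cd74, was at 494 ± 189 against 12.2. Ifi30, a thiol reductase of endosomes, was at 334 ± 147 against 17.1 CPM. The promoter factors Rfx5, Rfxap and Rfxank had log2 ratios of 0.47, -0.14 and -0.35. On the class I list 9 of 13 genes were at least 2-fold higher, among them Psmb8 and Psmb9, subunits of the immunoproteasome, at 960 ± 245 and 570 ± 241 CPM against 239 and 126.

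Nucleic acid sensing and dendritic transcription factor lists followed the same order. On the sensing list 7 of 12 genes were at least 2-fold higher in members. Irf5 was at 141 ± 74.4 against 5.92 CPM and Unc93b1, the chaperone of endosomal Toll-like receptors, at 295 ± 85.5 against 36.4, while Tlr9 and Ddx58 were at 0 in members. Of 22 transcription factors 14 were at least 2-fold higher. Id2, which opposes E proteins such as Tcf4, was at 1690 ± 796 against 109 CPM. Gfi1, a granulocytic factor, had no UMI in members and 18.3 CPM in other cells. Of 12 cytokine and chemokine receptors 7 were at least 2-fold higher, and Kit, on which the enrichment was based, was at 38.5 ± 44.0 CPM against 55.6 and seen in 34 members (13.4%). On the mature list 10 of 11 genes were at least 2-fold higher, but several rest on few cells. Fscn1 was seen in 4 members, Ccl22 in 5 and Cd80 in 6. Cd86, a costimulatory ligand, was seen in 30.8% of members (20.3% without G12D/E2-KO T1). Ccr7, which guides cells to lymph nodes, was seen in 4 members, or 1.58% (3.12%).

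Summed over a list, genes of progenitors were lower in members than in other cells in each of the 12 libraries, and genes of dividing cells in all but G12D T3, where Top2a was at 377 CPM in members and 252 in other cells and Birc5 at 442 and 305 CPM. None of 11 stem and multipotent genes and none of 19 proliferation genes was at least 2-fold higher, with median log2 ratios of -2.18 and -1.13. The ERK output list had 4 of 16 genes at least 2-fold higher, near the 22.6% of all genes with a UMI in members. Its median log2 ratio was -0.27. Of the 4, Egr1, Dusp5 and Fos were seen in only 5, 7 and 10 members. The fourth, Ccnd1 (cyclin D1), was seen in 112 members, at 144 ± 57.6 against 11.1 CPM. The Polycomb list had 3 of 19, and the interferon response list 10 of 17, with Ly6e at 1380 ± 343 against 532 CPM.

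Transcripts on the lists of other cell types were seen in the members at levels that differed between libraries. Whether they come from the members themselves or from other cells, and their part in any result, was not tested. Summed over 13 granulocyte genes they ran from 1173 to 73128 CPM in members and from 44223 to 156287 in other cells, and the 2 cells of WT T3 held the highest value. The erythroid list ran from 463 to 14951 CPM in members and from 9693 to 94850 in other cells. The monocyte list had 5 of 9 genes at least 2-fold higher in members and ran from 653 to 9368 CPM. Cd3e, Gzma, Fcer1a, Tnfrsf17, Mertk, Ppbp, Gp1bb and Rab27b were at 0 in all members. Other genes went the other way: 5 of 10 macrophage, 4 of 9 B lymphoid and 3 of 6 plasma cell genes were at least 2-fold higher in members. Most of these rest on few members. Mrc1, Adgre1 and C1qc were seen in 1, 4 and 9, and Fcer2a, Ms4a1, Cd22 and Cd72 in 1, 3, 4 and 7. Sdc1 and Prdm1 were seen in 1 and 2, while Hmox1, Axl and Xbp1 were seen in 24, 30 and 84. The T and NK list had 2 of 8, the megakaryocyte list 1 of 6 and the basophil and mast list 0 of 7. Over all genes with a UMI in members the share was 22.6%. Vwf was seen in 17.8% of members and 2.32% of other cells, and Axl in 11.9% and 1.08%. The summed B lymphoid list reached 190 CPM, the plasma cell list 1175, the T and NK list 277, the macrophage list 166, the basophil and mast list 37.2 and the megakaryocyte list 166 CPM in any library. In other cells these lists reached 622, 1046, 504, 98.7, 190 and 885 CPM in the same order.

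The cells that the exclusions removed were of mixed identity. Of 57 class II cells with a UMI of Cd79a, Vpreb1 or Igll1, 32 held Cd79b and 20 held Ms4a1, both B cell genes, and 6 held Xcr1 or Clec9a. Of 23 class II cells with a UMI of C1qa or C1qb, 11 held Xcr1 or Clec9a, 9 held Vcam1, a macrophage adhesion molecule, and 13 had a single C1q UMI. In cells outside these classes a C1qa UMI was seen in 1.74%.

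**Figure D2:**
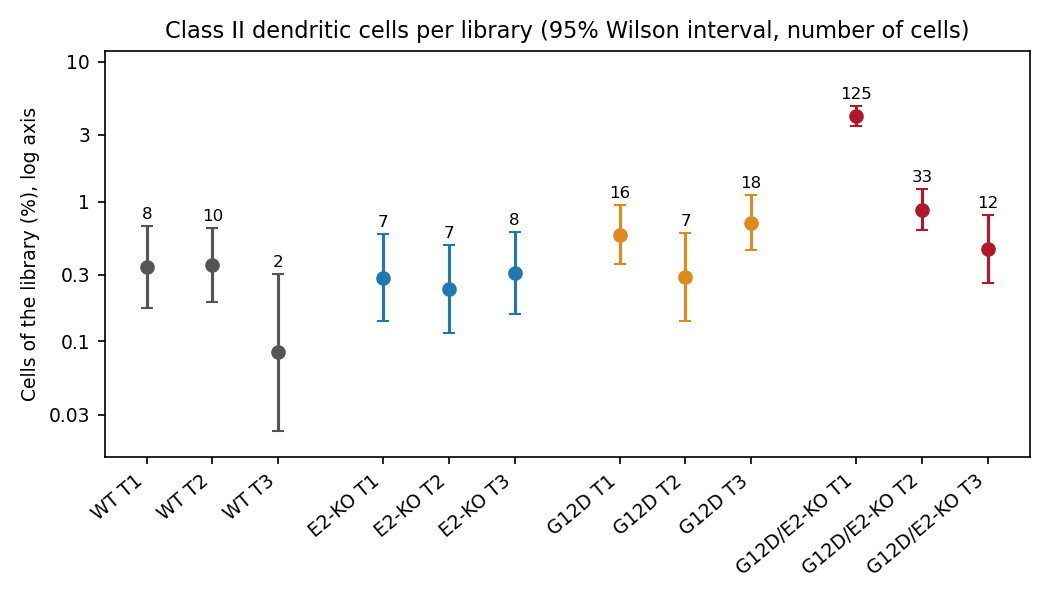
Members as a percentage of all cells of each library (vertical, log axis), with the 95% Wilson interval and the number of members above each point, coloured by genotype. The share in G12D/E2-KO T1 is 4.11% and that in WT T3 0.0837%.

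The number of dendritic cells was compared to ask whether activated NRas or loss of Ezh2 changed their share of the c-Kit-enriched marrow. Members made up 0.340, 0.352 and 0.0837% of cells in WT at T1, T2 and T3 (8, 10 and 2 cells). They made up 0.286, 0.238 and 0.309% in E2-KO (7, 7 and 8 cells), and 0.581, 0.290 and 0.706% in G12D (16, 7 and 18 cells). In G12D/E2-KO they made up 4.11, 0.876 and 0.459% (125, 33 and 12 cells), and the first of these lies above all other libraries, with an interval of 3.46 to 4.87%. The genotype means were 0.259 ± 0.152% (WT), 0.278 ± 0.0365% (E2-KO), 0.526 ± 0.213% (G12D) and 1.81 ± 2.00% (both alleles; SD, n = 3). Intervals cover counting error only.

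Libraries with G12D had a higher share than their partners of the same time point in 5 of 6 pairs. The mean log2 ratio was 1.64 ± 1.58 (SD, 6 pairs), a 3.12-fold difference, with p = 0.0625 in an exact two-sided sign-flip permutation test and 0.188 after adjustment over 3 contrasts. The smallest p that 6 pairs allow is 0.0312. A test that ignores the time points, an exact permutation of 6 against 6 libraries, gave an unadjusted p = 0.00866 for the same difference. Without Ezh2 the share was higher in 3 of 6 pairs, with a mean log2 ratio of 0.81 ± 1.47 and an exact p = 0.25. The pairs were at -0.25, 2.82, -0.56, 1.59, 1.89 and -0.62, the largest being G12D/E2-KO T1 against G12D T1. There, and in the T1 interaction, the 118 shared members count only in G12D/E2-KO T1. As deposited, G12D T1 held 134 members among 5648 cells. The interaction was 0.91 ± 2.99 over 3 time points, with log2 values of 3.07, 2.16 and -2.51, an exact p = 0.750, and a smallest possible p of 0.25. Since cells were enriched by c-Kit, a share reflects both the cells in the marrow and how well they were retained, which cannot be told apart here.

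**Figure D3:**
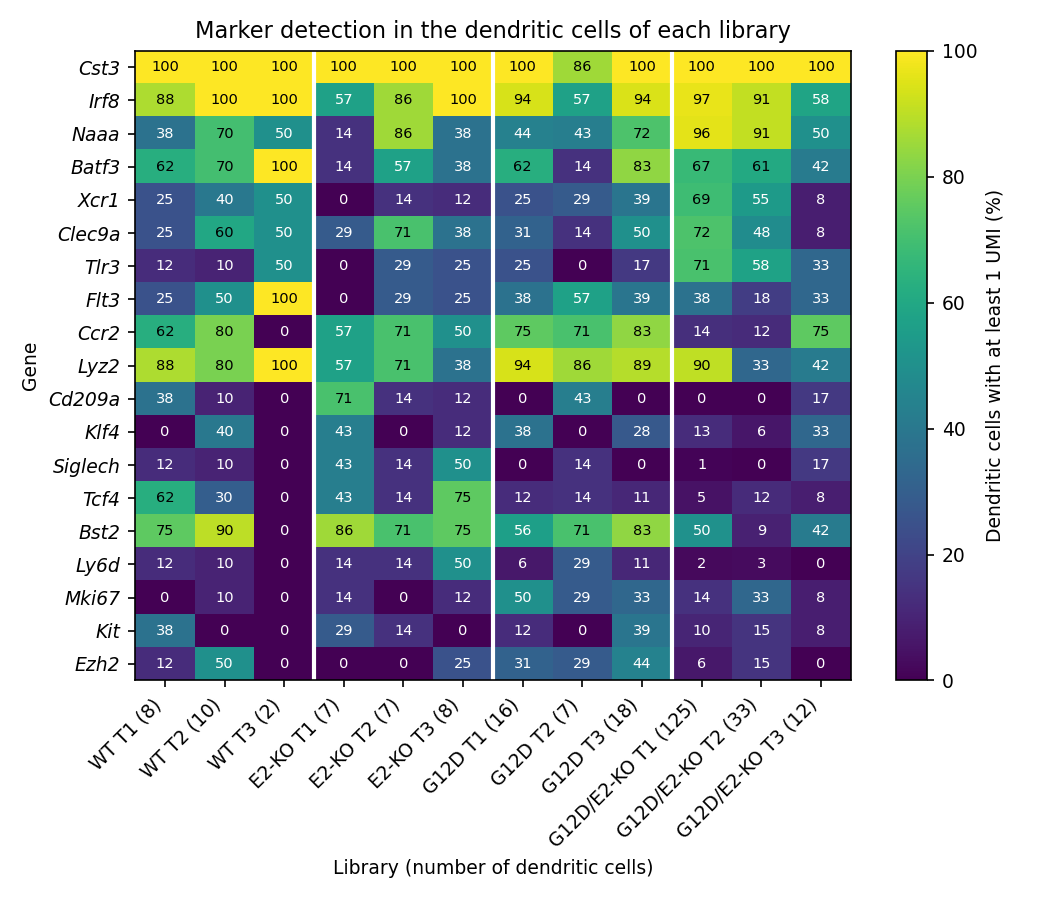
Percentage of the members of each library (columns, number of members in parentheses) with at least 1 UMI of each gene (rows), as numbers and colour. Siglech was seen in no member of WT T3, G12D T1, G12D T3 or G12D/E2-KO T2. Cells were not thinned to equal depth.

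Markers of the kinds of dendritic cell varied among libraries, which is described here without a test. Xcr1 or Clec9a was seen in 107 of 125 members in G12D/E2-KO T1 and in 22 of 33 in G12D/E2-KO T2, but in 2 of 12 in G12D/E2-KO T3. In the other genotypes the share lay between 28.6 and 71.4%. Thinned to 2000 UMIs, it was 65.6, 43.3 and 10.0% in the 3 G12D/E2-KO libraries and between 12.5 and 60% in the other 9, so only the first lay above all of these. Ccr2 showed the reverse order within this genotype, at 35.3, 70.8 and 640 CPM. The median member of these libraries had 5825, 3089 and 2589 UMIs.

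Siglech was seen in 10 of 42 members without G12D (23.8%) and in 4 of 211 with G12D (1.90%), and in 3 of 86 with G12D when the library G12D/E2-KO T1 was left out (3.49%). After thinning to 2000 UMIs the share was 12.5, 10.0 and 0% in WT and 42.9, 14.3 and 20.0% in E2-KO at T1, T2 and T3. It was 0, 14.3 and 0% in G12D and 0, 0 and 10.0% in G12D/E2-KO. Each of these values rests on at most 3 Siglech-positive cells, and 0 of 125 members in G12D/E2-KO T1 and 0 of 2 in WT T3 differ greatly in what they can show. In cells that were not members the thinned share was 0.155%. The share was lower with G12D in 4 of 6 pairs, higher in 1 and 0% in both members of the T3 pair of WT and G12D. With 0.5 added to each count the mean log2 ratio was -2.65 ± 2.48, with an exact sign-flip p = 0.0625 and an adjusted p = 0.188. The T3 pair then enters at -2.66, which comes from the added 0.5 and the unequal numbers of members (2 and 18), and without WT T3 the value was -2.65 with an exact p = 0.125. G12D T1 (0 of 16) and G12D/E2-KO T1 (0 of 125) and T2 (0 of 30) also had no positive member. The size of their ratios thus depends on the added 0.5 and the number of members. The largest, -6.78, sets 0 of 125 against 3 of 7 in E2-KO T1. The mean is therefore not a plain fold difference in Siglech. Ignoring the time points, an exact permutation of 6 against 6 libraries gave an unadjusted p = 0.0195. For Ezh2 deletion the log2 ratio was -0.27 ± 2.39 with an exact p = 0.812, but 0.493 with cells as deposited, 0.221 without thinning and up to 0.384 without 1 library (G12D or G12D/E2-KO at T2), and for the interaction -2.16 ± 3.43 with an exact p = 0.5. In the Ezh2 contrast the T1 pair of G12D/E2-KO and G12D, 0 of 125 and 0 of 16, enters at -2.89 through the added 0.5.

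Siglech cells were also counted over the whole marrow fraction, without a test. Cells with at least 2 Siglech UMIs, members or not, made up 0.170, 0.0352 and 0% of cells in WT and 0.327, 0.0679 and 0.193% in E2-KO. With G12D alone they made up 0.400, 0.0415 and 0.118%, and with both alleles 0.230, 0.133 and 0%. In G12D T1 none of 11 such cells was a member, and in E2-KO T3 4 of 5 were. The ranges of the genotypes overlapped.

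Gene expression within the members was compared between genotypes on counts summed over the members of each library, with edgeR's quasi-likelihood test over 714 genes. WT T3, with 2 members, was left out of this fit by the minimum of 5 members, so WT had 2 libraries. Called means an adjusted p under 0.05. For Ezh2 deletion 1 gene was called (0.140% of those tested), while 29 had an unadjusted p under 0.05. For G12D none was called (0%), with 38 at an unadjusted p under 0.05 and 6 called by DESeq2. For G12D/E2-KO against WT none was called (0%), with 36 and 1, and for the interaction none (0%), with 33 and 1. Kinds of member were not separated in these sums, and their mix differed between genotypes. Of the clusters described below, cluster 8 held 7 of 22 members of E2-KO and 0 of 170 of G12D/E2-KO. Cluster 7 held 11 of 41 of G12D and 5 of 170 of G12D/E2-KO. A changed mix of members and changed expression within a kind therefore cannot be told apart.

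The targeted genes were checked first. Ezh2, the methyltransferase of the Polycomb repressive complex, was at 34.9, 154 and 0 CPM in members of WT at T1, T2 and T3, and at 46.5, 104 and 129 CPM in G12D. It was at 0, 0 and 114 CPM in E2-KO and at 12.2, 47.2 and 0 CPM in G12D/E2-KO. Pooled, the members without the deletion held 29 Ezh2 UMIs (90.1 CPM, exact Poisson interval 60.4 to 129) and those with it 18 (18.5 CPM, 11 to 29.2), where the intervals cover counting error only. G12D/E2-KO T1 gave 9 of these 18 UMIs, and without it the level with the deletion was 38.0 CPM (17.4 to 72.2), whose interval overlaps that of members without the deletion. The values of single libraries overlapped, with 114 CPM in E2-KO T3 resting on 3 UMIs. Ezh2 was too low for the test across genes. Nras was at 174, 57.8 and 0 CPM in members of WT and at 44.1, 0 and 75.8 CPM in those of E2-KO. With G12D it was at 46.5, 69.1 and 21.5 CPM, and with both alleles at 70.6, 62.9 and 80.0 CPM. It was also too low for the test, and the G12D allele cannot be told from the normal one in these counts.

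Arf5, which encodes a small GTPase of vesicle transport (ENSMUSG00000020440, chromosome 6, 28423560 to 28426602, plus strand, GRCm38), was the gene called for Ezh2 deletion. Its level in members was 454, 636 and 250 CPM in WT and 512, 691 and 614 CPM in G12D. It was 132, 174 and 190 CPM in E2-KO and 196, 220 and 187 CPM in G12D/E2-KO. Each of the 6 libraries with Ezh2 deleted was below each of the 6 without. The E2-KO values rest on 12 UMIs in 9 of 22 members. Ezh2 lies on the same chromosome (47530139 to 47595341), and whether the floxed Ezh2 allele and Arf5 are inherited together in these mice was not tested. Arf5 fell by 1.60 on the log2 scale (SE 0.24, edgeR adjusted p = 0.0188). The difference was not particular to dendritic cells by these values: in all other cells Arf5 was at 300 to 437 CPM without the deletion and at 153 to 184 CPM with it. DESeq2 also called it. The call was lost in 9 of 11 fits that left out 1 of the 11 libraries, which were those without WT T1 or T2, E2-KO T1 or T2, any G12D library, or G12D/E2-KO T1 or T2. The log2 value stayed between -1.79 and -1.40 over the alternatives tried, and the adjusted p reached 0.436. Next by p, and not called, were Vim at -0.93 and Plac8 at -1.01 among lower genes and Bax at 1.07, Notch2 at 1.24 and Tnni2 at 1.61 among higher ones, all with an edgeR adjusted p = 0.892.

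**Figure D4:**
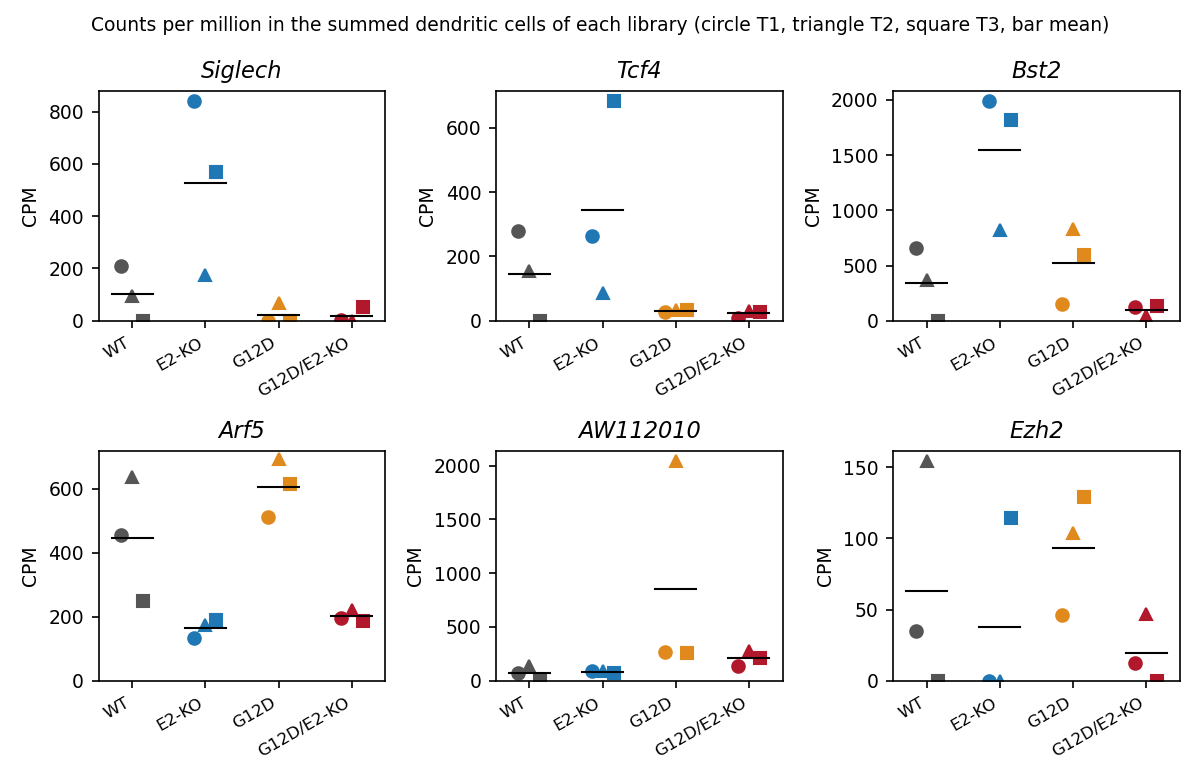
CPM of 6 genes in the summed members of each library (vertical) by genotype, with a circle for T1, a triangle for T2, a square for T3 and a bar at the mean of 3 libraries. Arf5 is at 132 to 220 CPM in the 6 libraries with Ezh2 deleted and at 250 to 691 CPM in the others. The square of WT T3 rests on 2 cells.

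For G12D the lower genes of smallest p were those of plasmacytoid cells. None was called by edgeR after the filter on low counts in the fit of 11 libraries. The same fit without G12D T2 called 3 lower genes, Siglech and Bst2 among them. Siglech was at 209, 96.4 and 0 CPM in WT and 839, 174 and 569 CPM in E2-KO. It was at 0, 69.1 and 0 CPM in G12D and 1.36, 0 and 53.4 CPM in G12D/E2-KO. Apart from the 2 cells of WT T3, every library without G12D was above every library with it. This order turns on few cells: the values of WT T1, WT T2, E2-KO T2 and G12D T2 each came from 1 cell. The log2 difference was -5.31 (SE 1.20, edgeR adjusted p = 0.287). Tcf4, the E protein that sets plasmacytoid identity, was at 279, 154 and 0 CPM in WT and 265, 86.9 and 682 CPM in E2-KO, against 27.9, 34.6 and 32.3 CPM in G12D and 9.51, 31.5 and 26.7 CPM in G12D/E2-KO. Its log2 difference was -3.55 (SE 0.80, edgeR adjusted p = 0.287), and again only WT T3 overlapped the libraries with G12D. The Tcf4 value of E2-KO T2 came from 2 UMIs of 1 cell, and that of G12D T2 from 1 UMI.

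Bst2 (tetherin) differed by -2.05 on the log2 scale (SE 0.51, edgeR adjusted p = 0.581). It was at 663, 366 and 0 CPM in WT and 1986, 826 and 1819 CPM in E2-KO. With G12D alone it was at 149, 830 and 592 CPM and with both alleles at 126, 39.3 and 133 CPM, so the groups overlapped. Of 16 genes on the plasmacytoid list 6 were abundant enough to be tested, all 6 had a negative log2 difference and none was called, with a median of -3.55 beside 0.01 over all genes. These genes passed the abundance filter through the libraries in which they are high, and Siglech itself was seen in only 14 cells. DESeq2 called 6 genes for G12D, all lower: Siglech, Tcf4, Bst2, Ly6d, Cox6a2 and Cd7. Without the filter on low counts edgeR called these 6 and Klk1, all lower, among 18 genes.

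Of the genes higher with G12D, AW112010, an interferon-inducible transcript, had the smallest p and was not called. The fit without the filter called AW112010, Ccl5 and Ckb. It was at 69.8, 135 and 0 CPM in WT and 88.3, 86.9 and 75.8 CPM in E2-KO, against 270, 2039 and 259 CPM in G12D and 139, 275 and 213 CPM in G12D/E2-KO. Each library with G12D was above each without it, by a narrow margin of 139 over 135 CPM, and the log2 difference was 2.17 (SE 0.52, edgeR adjusted p = 0.287). Ccl5, a chemokine of T cells and mature dendritic cells, differed by 3.97 (SE 1.10, edgeR adjusted p = 0.597), and its 828 CPM in G12D T1 came from 1 cell. Ckb differed by 1.33 (SE 0.41, edgeR adjusted p = 0.680).

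The genes of type 1 cells were not called in any of the 4 comparisons by edgeR after the filter. Without the filter edgeR called Naaa, higher with G12D, and Tlr3, higher in G12D/E2-KO than in WT. Of 10 on the list 6 were tested. Their median log2 difference was 0.32 for G12D, 0.51 for Ezh2 deletion, 0.995 for G12D/E2-KO against WT and 0.70 for the interaction, beside medians over all genes between -0.05 and 0.01. Naaa was at 279, 578 and 499 CPM in WT and 44.1, 1130 and 417 in E2-KO. With G12D alone it was at 437, 588 and 754 CPM and with both alleles at 1506, 1683 and 640 CPM. The double mutant lay above WT in every library and overlapped E2-KO and G12D. Its log2 difference between G12D/E2-KO and WT was 1.80 (SE 0.71, edgeR adjusted p = 0.907). Tlr3 was at 307, 393 and 187 CPM in G12D/E2-KO and between 0 and 303 CPM in the other libraries (edgeR adjusted p = 0.907 for the same comparison).

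Class II pathway genes that the rule did not use were likewise not called in this fit. Of 14 on the list 6 were tested, with a median log2 difference of -0.22 for Ezh2 deletion, -0.20 for G12D, -0.39 for G12D/E2-KO against WT and 0.15 for the interaction. H2-DMa ranged from 642 to 1331 CPM over the 12 libraries and differed by 0.23 with G12D (SE 0.27). H2-Oa had the smallest p of the list, with a log2 difference of -1.35 for G12D (SE 0.55, edgeR adjusted p = 0.790). Its level was 314, 366 and 582 CPM in WT and 177, 174 and 114 CPM in E2-KO. With G12D alone it was 46.5, 34.6 and 140 CPM and with both alleles 181, 70.8 and 107 CPM. WT was above every other genotype for H2-Oa, and the other 3 overlapped. Of the class I list 7 genes were tested, with medians between -0.35 and 0.16 over the 4 comparisons.

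The remaining lists gave no call in the filtered edgeR fit. With Xist as a covariate Ccr2, on the monocyte list, was called lower with Ezh2 deletion and in G12D/E2-KO against WT, and without the filter Elane was called higher for G12D and Ly6c2 was called with a negative interaction. Of the proliferation list 5 genes were tested, all 5 lower with Ezh2 deletion (median -0.44) and all 5 higher with G12D (median 0.36). Of the monocyte list 5 were tested, all 5 lower with Ezh2 deletion at a median of -1.34. Of the interferon response list 4 were tested, with medians of -0.33 for Ezh2 deletion and -0.43 for G12D. No gene of the Polycomb, ERK output, stem cell, macrophage, B lymphoid, plasma cell, T and NK, basophil and mast, or megakaryocyte lists was abundant enough. For the granulocyte list 7 genes were tested, with a median of -1.51 in the interaction, and for the erythroid list 4, with medians of 1.75 for Ezh2 deletion and 2.13 for G12D/E2-KO against WT.

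For G12D/E2-KO against WT the genes of smallest p, none called, were Arf5 at -1.39, Plac8 at -1.96 and Tcf4 at -3.69 among lower genes and Tnni2 at 3.05, Rpl23a at 2.04 and Chmp4b at 1.74 among higher ones (edgeR adjusted p from 0.876 to 0.907). Without the filter on low counts Tnni2 and Tcf4 were called. Tnni2, a troponin subunit of fast muscle, was at 105, 116 and 83.2 CPM in WT and at 1024, 865 and 480 CPM in G12D/E2-KO, so these groups did not overlap. It was at 309, 217 and 0 CPM in E2-KO and 251, 0 and 118 CPM in G12D. For the interaction Lgals1, encoding galectin 1, had the smallest p. Its level was 489, 752 and 83.2 CPM in WT and 2737, 869 and 1137 CPM in E2-KO. With G12D alone it was 1638, 1659 and 1282 CPM and with both alleles 221, 260 and 480 CPM. Both single mutants were above every WT and every double mutant library, and the interaction was -3.56 on the log2 scale (SE 0.72, edgeR adjusted p = 0.25). DESeq2 called Lgals1, as did edgeR with Xist as a covariate, at -4.24. Bst2 at -3.67 and Hspa5 at -2.55 followed among lower genes, and Ckb at 2.91, Efhd2 at 2.31 and Tmsb4x at 0.92 among higher ones, all with an edgeR adjusted p = 0.896.

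**Figure D5:**
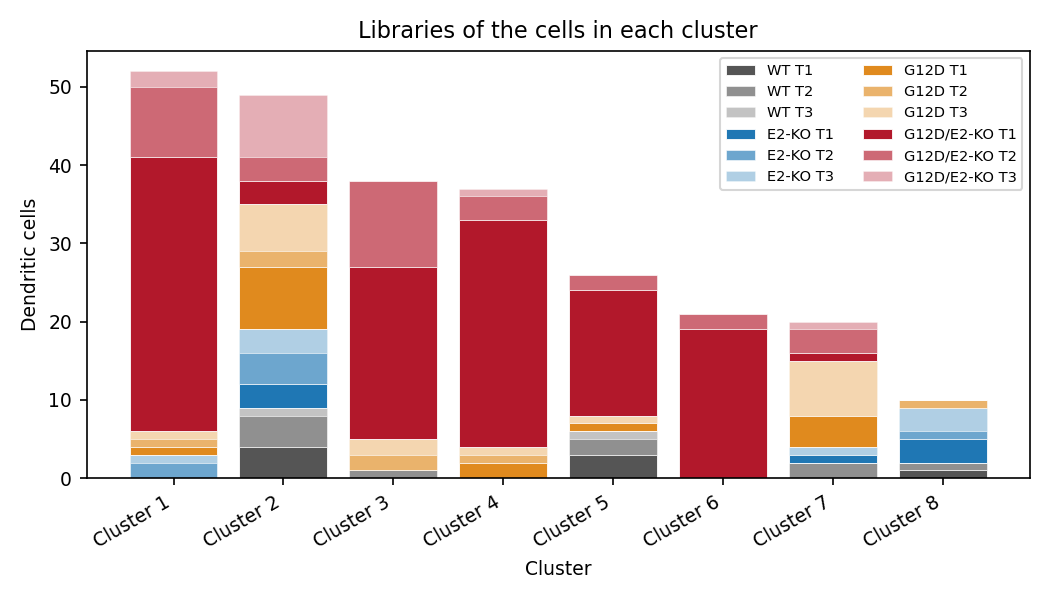
Number of members (vertical) in each of 8 clusters, stacked by library, with genotype as colour and lighter shades for later time points. Clusters 1, 3, 4, 5 and 6 are mostly G12D/E2-KO T1, cluster 2 holds cells of all 12 libraries, and cluster 8 holds none of G12D/E2-KO.

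Clustering the 253 members without the rule genes, sex-linked genes and granulocyte and erythroid genes gave 8 clusters, described here by their leading genes without a test. Cluster 8 (10 cells) was led by Siglech, Ly6d, Atp1b1, Cox6a2, Klk1, Ctsl, Tcf4, Smim5, Bst2 and Prkca, 6 of them on the plasmacytoid list, and is called plasmacytoid-like. Siglech was at 1951 CPM there and at 3.94 CPM in other members. Its cells came from WT (2), E2-KO (7) and G12D (1). Their median class II level was 127 per 10000 and their median UMI number 2620.5. Cd209a was seen in 5 of the 10 cells, and the type 2 list summed to 916 CPM, against 60.3 to 556 in the other clusters. The dendritic core list summed to 2070 CPM, against 14309 to 34509.

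Cluster 2 (49 cells) held cells of all 12 libraries, at most 16.3% from any one. It was led by Wfdc17, Ifitm2, Ccl9, Elane, S100a4, S100a6, Ms4a4c, Clec4a1, Ifitm6 and Ifitm3. The monocyte list summed to 6043 CPM there, against 721 to 3145 in the other clusters, and the granulocyte list to 29933 CPM, against 3543 to 14915. Of its cells 10 held Cd209a and 13 Xcr1 or Clec9a. It held 8 of the 12 members of G12D/E2-KO T3 and 8 of the 16 of G12D T1. Its leading genes match no fixed dendritic list and it stays unnamed.

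Clusters 3 and 7 carried cell cycle genes. Cluster 3 (38 cells, 22 of them G12D/E2-KO T1) was led by Hba-a1, Hba-a2, Hbb-bs, Hbb-bt, Rrm2, Knstrn, Ube2c, Cdca8, Tuba1b and Cdk1, so globin genes that were left out of the clustering led it. Cluster 7 (20 cells, 7 of them G12D T3) was led by Top2a, Hist1h2ap, Xist, Ms4a6c, Hist1h2al, Nusap1, Spc24, Mxd3, Lgals1 and Prc1. Mki67 or Top2a was seen in 26 of 38 cells of cluster 3 and in 20 of 20 of cluster 7, and Xcr1 or Clec9a in 31 and 7.

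The other clusters carried type 1 markers in most cells. Xcr1 or Clec9a was seen in 48 of 52 cells of cluster 1, in 30 of 37 of cluster 4, in 23 of 26 of cluster 5 and in 16 of 21 of cluster 6. Cluster 4 (78.4% G12D/E2-KO T1) was led by Creld2, Sel1l, Manf, Hsp90b1, Sdf2l1, Ly6c2, Isyna1, Lactb, Dnajc3 and Pdia6, several of which serve protein folding in the endoplasmic reticulum. Cluster 5 was led by Marcksl1, Relb, Pmaip1, Dusp2, Cd83, Traf1, Btg1, N4bp2l1, Basp1 and Cxcl16, and its mature list summed to 1762 CPM against 55.5 to 309 CPM in the other 7 clusters. It held 16 cells of G12D/E2-KO T1 and 6 of WT. Cluster 1 was led by RP24-416M6.5, Rpl7a-ps5, Sult1a1, Pvrl1, 2310031A07Rik, Ccng1, Trim35, Asb2, Slco3a1 and Arrdc4. Cluster 6, with 19 of 21 cells from G12D/E2-KO T1, was led by Kremen2, Anpep, Naalad2, Cpsf3, Cd302, Borcs7, Ush1c, Usp21, Got1 and Yif1b. None of the leading genes of clusters 1 and 6 is on a fixed list, and with 67.3 and 90.5% of cells from 1 library, a cell state and that library cannot be told apart.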

How the data were processed

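The deposited values are UMI counts per gene and cell. Per the study's methods, reads were aligned to mm10 with Cell Ranger sample by sample, and the authors removed cells with high mitochondrial content and removed doublets with Scrublet. No doublet caller was run here and no cell filter was added. The tables hold 27998 gene names and 35597 cells, and 32701 after cells of G12D T1 with a cosine above 0.9 to a G12D/E2-KO T1 cell (square-root counts, genes ranked 301 to 8300) were dropped.

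The members and gene lists were chosen with earlier results of these data known. Counts summed over members per library (12020 to 736396 UMIs) were tested with edgeR 4.0.16 (R 4.3.3, TMM, filterByExpr, glmQLFit robust) with genotype and time point as factors, 11 libraries and 5 residual degrees of freedom, and Benjamini-Hochberg adjustment within a contrast. DESeq2 1.42.0 was an alternative. The effects of Ezh2 deletion and of G12D are averages over both states of the other allele. The time point, from the labels, pairs libraries only by time after pIpC. Shares were tested by exact sign flips over same-time pairs. The edgeR test was run on simulated data first. Clusters used scanpy 1.11.5 with 15 components, 10 neighbours and Leiden resolution 1, set after the data were seen. Leading cluster genes were seen in at least 25% of the cluster, with 20 CPM added to both levels.

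Genes were named by a written rule: Ezh2 and Nras, the 15 leading genes of members at 100.0 CPM or more, the called genes of each contrast or the 3 of smallest p in each direction, the 10 leading genes of each cluster, and genes of the fixed lists.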

Additional observations from a re-analysis of the deposited data

How the results depend on the processing

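Counts of called genes were small in every fit and moved with the settings. DESeq2 gave 1, 6, 1 and 1 genes for Ezh2 deletion, G12D, G12D/E2-KO against WT and the interaction, where edgeR gave 1, 0, 0 and 0. Without a filter on low counts the numbers were 0, 18, 10 and 2 of 12282 genes, with Xist as a covariate 2, 0, 1 and 3, and with cells as deposited or with members without a Siglech UMI 0 in each. The last of these conditions on the outcome and leaves E2-KO with 1 library of at least 5 members, so it says nothing about stability. RLE size factors, thresholds of 30 and 100 per 10000 and leaving out granulocyte and erythroid genes kept 1, 0, 0 and 0. Leaving out 1 library gave 0 to 2, 0 to 3, 0 to 1 and 0 to 1, with 3 calls for G12D without G12D T2, 1 for G12D/E2-KO against WT without G12D T2 or G12D/E2-KO T3, and 1 for the interaction without G12D T1. For Ezh2 deletion no call remained without WT T1 or T2, E2-KO T1 or T2, any G12D library, or G12D/E2-KO T1 or T2, and 2 were made without G12D/E2-KO T3. Fits with members that hold a Siglech UMI and with libraries of at least 20 members were not run, since too few libraries remained.

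Without the replicate block (pairing by time point) the counts stayed at 1, 0, 0 and 0, the G12D difference in the share of members was 1.64 with an exact p = 0.00866, and that in the Siglech share -2.65 with an exact p = 0.0195. The E2 values were 0.81 and -0.27. The share interaction ranged from -0.175 to 2.61 when 1 library was left out, and was negative without any T1 library. The Siglech share for Ezh2 deletion was 0.493 with cells as deposited and 0.221 without thinning, and ranged from -0.798 to 0.384 when 1 library was left out, positive without G12D or G12D/E2-KO at T1 or T2. In that contrast the T1 pair of G12D/E2-KO and G12D enters at -2.89 with 0 of 125 and 0 of 16 Siglech-positive members. That value comes from the added 0.5 and the unequal numbers of members. The T2 pair of these genotypes enters at -3.54 with 0 of 30 and 1 of 7. The cause of the other shifts was not tested. The 24 gene and contrast pairs named by p kept their direction in every alternative that tested them. All of these values rest on few cells, as 10 of 12 libraries held 18 members or fewer.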
